A study of Homo sapiens with 6 samples.

Results

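The subunits of RNA polymerase I (Pol I) are described here, as the 8 rows of a deposited gene table of 33539 genes whose name is POLR1A, POLR1B, POLR1C, POLR1D, POLR1E, POLR1F, POLR1G or POLR1H. Their mRNA was sequenced, after poly(A) selection, from 8505C, an established human cell line of anaplastic thyroid cancer, the undifferentiated form of thyroid carcinoma. Cells received either an siRNA against POLR1F (siPOLR1F, 3 libraries) or a negative control siRNA (NC, 3 libraries), and RNA was collected after 24 h in both groups. Both groups are this single cell line, grown in the same serum-containing medium, and carry no other labelled change. Whether the libraries numbered 1 to 3 came from separate cultures or received separate siRNAs is not stated in the labels. All p-values therefore measure only how far these libraries spread, and that spread may be technical.

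Pol I transcribes the ribosomal RNA precursor in the nucleolus, the first step of ribosome production, and its activity is often raised in cancer cells. POLR1A and POLR1B are its largest subunits and form the active-site cleft. POLR1F sits on the stalk that contacts the initiation factor RRN3, POLR1E and POLR1G form a heterodimer bound to the core, and POLR1H is the small subunit known for RNA cleavage. POLR1C and POLR1D are assembly subunits that Pol I shares with RNA polymerase III (Pol III). Ribosomal RNA carries no poly(A) tail, so its output was not measured in these libraries.

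Each library held between 60576788 and 63038378 counts. Of 33539 genes, 13564 had a mean of at least 0.5 FPKM (fragments per length of transcript and per depth of library, by the authors) over the 6 libraries and were tested, with a median log2 fold change of -0.014. Mitochondrially encoded genes took 4.32% to 4.85% of the counts in siPOLR1F and 4.93% to 5.15% in NC, and their part in the results was not tested. Of 6 thyroid markers in the table, TG, TSHR and SLC5A5 were at or near 0 (at most 10 counts in any library), and NKX2-1, a thyroid transcription factor, fell, at 27.5 FPKM in siPOLR1F and 45.2 in NC (edgeR adjusted p = 0.000435). PAX8 did not pass, at 0.491 FPKM in siPOLR1F and 0.543 in NC (edgeR adjusted p = 0.872), and FOXE1 had at most 80 counts. The epithelial markers summed to 226 to 257 FPKM in siPOLR1F and 266 to 299 in NC. KRT8 fell, at 98.0 FPKM in siPOLR1F and 117 in NC (edgeR adjusted p = 0.0197, up to 0.0660 with a library left out), and CDH1 had at most 22 counts. KRT18, at 146 FPKM in siPOLR1F and 162 in NC, did not pass (edgeR adjusted p = 0.195). Nor did EPCAM, at 0.638 and 0.762 (0.574). The mesenchymal markers summed to 722 to 747 FPKM in siPOLR1F and 704 to 765 in NC. FN1 (fibronectin) fell, at 38.3 FPKM in siPOLR1F and 52.2 in NC (edgeR adjusted p = 0.0126), while VIM (vimentin) stood at 674 in siPOLR1F and 671 in NC. CDH2, at 14.4 FPKM in siPOLR1F and 13.4 in NC, was higher without overlap but did not pass (edgeR adjusted p = 0.178). ZEB1 did not pass either, at 3.73 and 3.3 (0.544). The 4 markers of other cells summed to 10.1 to 17.0 FPKM in siPOLR1F and 8.22 to 12.6 in NC. Most of this was CD68, at 12.9 ± 2.89 FPKM in siPOLR1F and 9.33 ± 2.68 in NC (SD, n = 3 each, edgeR adjusted p = 0.162). PECAM1 and VWF reached 331 and 519 counts in single libraries, and the leukocyte marker PTPRC at most 11. The part of these markers in the results was not tested.

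All 8 subunits passed the expression filter. POLR1A, POLR1B and POLR1G were higher in siPOLR1F at an adjusted p below 0.05 (edgeR's quasi-likelihood test, Benjamini-Hochberg over all tested genes), which is 37.5% of the members, against 10.3% of all tested genes. POLR1F was lower, 12.5% of the members against 6.94% of all tested genes. The other 4 did not pass. The FPKM of the groups did not overlap for POLR1A, POLR1B, POLR1C and POLR1G, which were higher in siPOLR1F (50% of the members, against 18.9% of tested genes), nor for POLR1F, which was lower (against 19.0%). The median log2 fold change was 0.20 over the 8 members and 0.25 over the 7 other than POLR1F. With 8 members chosen with earlier results known, these shares are a description and carry no test. The number called higher depended on the libraries. It was 1 (POLR1B) without siPOLR1F 1 or without NC 3, 2 without siPOLR1F 2, siPOLR1F 3 or NC 1, and 4, with POLR1C added, without NC 2.

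**Figure D1:**
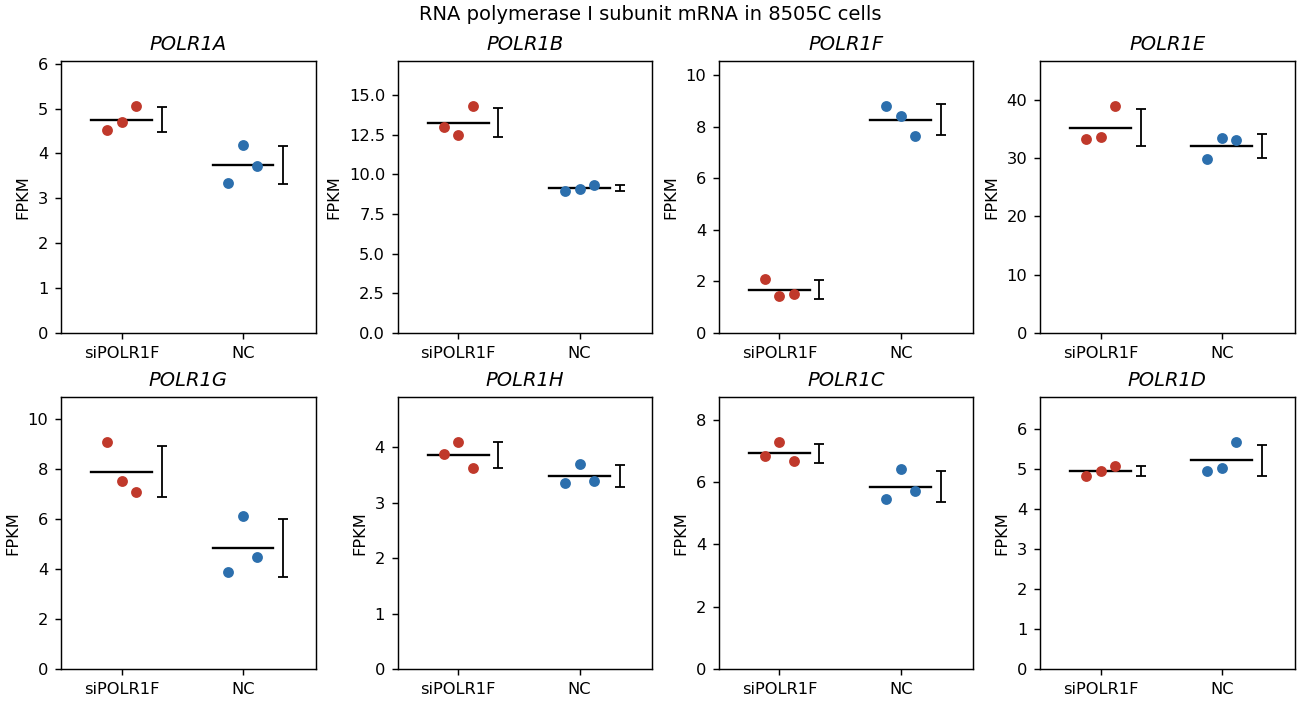
FPKM of each Pol I subunit in every library, siPOLR1F left of NC, with points for libraries, a line for the mean and a bar for the SD (n = 3 each). POLR1F lies at 1.42 to 2.09 in siPOLR1F and 7.64 to 8.80 in NC, whereas POLR1A, POLR1B, POLR1C and POLR1G lie higher in every siPOLR1F library than in any NC library.

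POLR1F, the siRNA target and the stalk subunit, fell to 20.2% of its control level. The gene is ENSG00000105849, on GRCh38 chromosome 7 at 19695461 to 19709037, minus strand. Its counts were 575, 395 and 413 in the 3 siPOLR1F libraries, against 2446, 2246 and 2095 in the 3 NC libraries. The FPKM was 2.09, 1.42 and 1.51 in siPOLR1F, and 8.80, 8.42 and 7.64 in NC. Every siPOLR1F library was below every NC library, and siPOLR1F 1 kept the most transcript. The mean was 1.67 ± 0.368 FPKM in siPOLR1F and 8.28 ± 0.592 FPKM in NC (SD, n = 3 each), 79.8% lower. The log2 fold change was -2.30 (SE 0.15, 95% confidence interval -2.64 to -1.95, edgeR adjusted p = 9.76e-05), the 5th lowest of all tested genes. The exact two-sided permutation test of the FPKM gave p = 0.1, the smallest that 3 against 3 libraries allow. In RNA from whole cultures, fewer cells with the transcript and less transcript per cell cannot be told apart.

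POLR1F became the most variable subunit in siPOLR1F, with a coefficient of variation of 22%, against 7.15% in NC. POLR1G was the most variable in NC, at 13.0% in siPOLR1F and 23.9% in NC. POLR1B had the smallest spread in NC, at 6.93% in siPOLR1F and 2.06% in NC, and the FPKM of POLR1D varied by 2.76% in siPOLR1F and 7.46% in NC.

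POLR1A and POLR1B, which together make the catalytic cleft, both rose in siPOLR1F. POLR1B (ENSG00000125630, chromosome 2, 112541915 to 112577150, plus strand) had 13.0, 12.5 and 14.3 FPKM in siPOLR1F and 8.97, 9.06 and 9.34 FPKM in NC. Each siPOLR1F library lay above the NC libraries, which stood close together. Its mean was 13.3 ± 0.919 FPKM in siPOLR1F and 9.12 ± 0.188 in NC (SD, n = 3 each), a log2 fold change of 0.55 (SE 0.06, interval 0.41 to 0.69, edgeR adjusted p = 0.00106). It passed the test under every alternative run, with adjusted p-values up to 0.0103 (edgeR, DESeq2 or limma).

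POLR1A (ENSG00000068654, chromosome 2, 86020216 to 86106155, minus strand) had 4.52, 4.70 and 5.05 FPKM in siPOLR1F and 3.35, 4.19 and 3.71 FPKM in NC. The groups did not overlap, but NC 2 came close to siPOLR1F 1. The mean was 4.76 ± 0.272 FPKM in siPOLR1F and 3.75 ± 0.422 in NC (SD, n = 3 each), a log2 fold change of 0.35 (SE 0.08, interval 0.16 to 0.54, edgeR adjusted p = 0.0244). The call was lost without siPOLR1F 1 (edgeR adjusted p = 0.0509), siPOLR1F 2 (0.0609), siPOLR1F 3 (0.0909) or NC 3 (0.0756). Adjusted p-values ran from 0.000872 to 0.111 over all alternatives in which POLR1A was tested.

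The heptamers TCGGAGA and CCGACTT were searched in the longest coding transcript of 11274 tested genes, because earlier work on these data had picked them out. They are shown since POLR1A and POLR1B, which rose, each hold TCGGAGA at 2 places in the coding sequence, and POLR1F and POLR1A hold CCGACTT once. The lines give the RNA strand 5′ to 3′ as DNA letters from GENCODE 29 (GRCh38), with the heptamer in capitals and 11 bases on either side.
POLR1B exon 5, chr2:112549318-112549346, plus strand: ttgattatgccTCGGAGAaattttcccat
POLR1B exon 16, chr2:112574946-112574974, plus strand: gaacccaactaTCGGAGAtaaatttgcca
POLR1A exon 20, chr2:86045717-86045745, minus strand: gaactggaaggTCGGAGAcccccgctgat
POLR1A exon 25, chr2:86040459-86040487, minus strand: tgcccagagcaTCGGAGAgccctccaccc
POLR1A exon 13, chr2:86070107-86070135, minus strand: ggcctataatgCCGACTTtgatggagacg
POLR1F exon 1, chr7:19708906-19708934, minus strand: gcctagagttgCCGACTTatgccgctgct
POLR1G, which rose, and the other members held neither heptamer in the transcript searched. Of all genes searched, 7.83% hold TCGGAGA in the coding sequence and 4.85% hold CCGACTT there. Of 883 genes with TCGGAGA in the coding sequence, 26.3% were called higher and 3.62% lower, against 10.0% and 8.22% of 9996 genes with no copy in the transcript. Of 547 genes with CCGACTT there, 11.2% were called higher and 13.9% lower, against 11.9% and 7.25% of 10404 genes without a copy. Because both heptamers were picked out in these same data, these shares are no independent support for them. They were not matched for coding length either. Leaving out POLR1A and POLR1B, both called higher themselves, leaves 1 subunit called higher by subtraction, which tests nothing. The labels give no siRNA sequence, and the part of these letters in the values was not tested.

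The promoters of the 3 subunits that rose are shown because the genes moved in the same direction. They were read from RefSeq (GRCh38.p14), from 250 bases before to 50 bases after an annotated start. Both strands were searched for GGGCGG (the GC box), CCGGAAG (an ETS-type site), CACGTG (the E-box), TTCCCAGCA (part of the ZNF143 motif), CCAAT (the CCAAT box), TGACGTCA (the cAMP response element) and AAGATGGC (a YY1-type site). Capitals mark the matches, none of which overlap here.
POLR1B, first start, chr2:112541786-112542085, plus strand: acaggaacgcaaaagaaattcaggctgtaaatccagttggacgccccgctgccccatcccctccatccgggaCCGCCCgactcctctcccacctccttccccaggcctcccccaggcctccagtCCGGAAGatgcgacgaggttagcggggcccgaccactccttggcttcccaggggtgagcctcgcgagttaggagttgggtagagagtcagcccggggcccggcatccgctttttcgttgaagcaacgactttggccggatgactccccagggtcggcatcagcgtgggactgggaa
POLR1B, later start, chr2:112542215-112542514, plus strand: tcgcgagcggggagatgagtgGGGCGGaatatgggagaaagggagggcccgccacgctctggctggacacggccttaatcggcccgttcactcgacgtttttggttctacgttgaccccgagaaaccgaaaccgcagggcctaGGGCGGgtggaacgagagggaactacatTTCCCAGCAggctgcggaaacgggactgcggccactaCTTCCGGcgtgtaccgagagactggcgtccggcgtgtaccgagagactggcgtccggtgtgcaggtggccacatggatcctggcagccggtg
POLR1A, chr2:86105837-86106136, minus strand: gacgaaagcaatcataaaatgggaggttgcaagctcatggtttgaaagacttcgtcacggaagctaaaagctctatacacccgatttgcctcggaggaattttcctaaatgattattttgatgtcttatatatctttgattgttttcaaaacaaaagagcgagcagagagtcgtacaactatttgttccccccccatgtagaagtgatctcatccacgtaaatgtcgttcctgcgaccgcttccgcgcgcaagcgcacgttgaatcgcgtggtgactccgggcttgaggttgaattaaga
POLR1G, chr19:45406394-45406693, plus strand: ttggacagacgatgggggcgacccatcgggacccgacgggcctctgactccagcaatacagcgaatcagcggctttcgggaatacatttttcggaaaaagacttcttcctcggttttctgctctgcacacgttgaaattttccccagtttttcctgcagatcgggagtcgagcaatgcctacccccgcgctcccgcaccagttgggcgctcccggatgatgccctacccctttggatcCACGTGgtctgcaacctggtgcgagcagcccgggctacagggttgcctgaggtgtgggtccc
The POLR1B windows hold GC boxes and ETS-type letters, the later one also TTCCCAGCA 79 bases before the start. The POLR1G window holds a CACGTG 12 bases before the start, and the POLR1A window holds none of these motifs. Among 35116 RefSeq promoters of this length, 45.0% hold GGGCGG, 10.3% CCGGAAG, 7.26% CACGTG, 0.934% TTCCCAGCA, 34.6% CCAAT, 1.85% TGACGTCA and 2.89% AAGATGGC. No motif was common to the 3 genes. GC boxes and ETS-type letters also stand in windows of subunits that did not pass the test. The POLR1C window holds both, and the POLR1D windows hold GC boxes. POLR1C, though not past the test (edgeR adjusted p = 0.0631), was higher in every siPOLR1F library than in any NC library. The part of these motifs in the values was not tested. The motifs were chosen with the sequences in view, and a match is not a measured binding site.

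**Figure D2:**
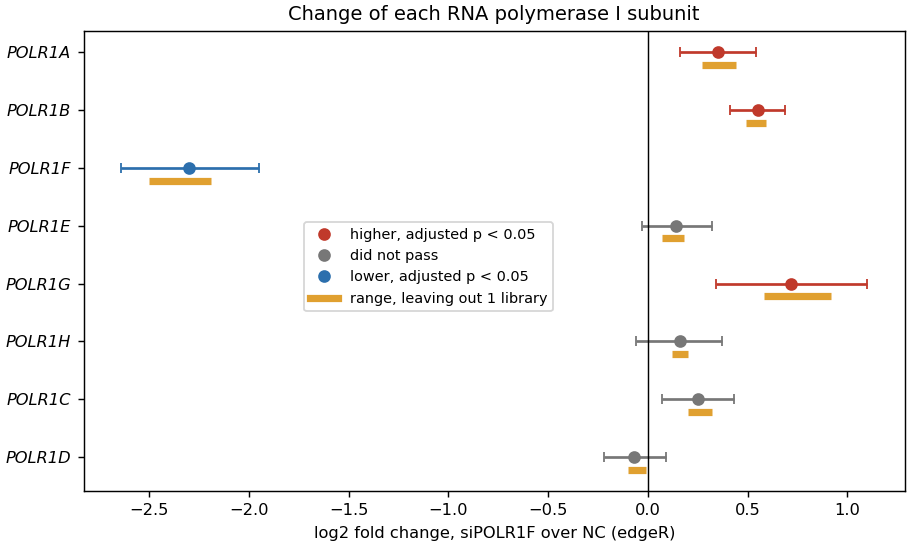
Log2 fold change of each Pol I subunit, siPOLR1F over NC, from edgeR, with 95% confidence intervals derived from its F statistic (6 libraries). POLR1F lies at -2.30, POLR1A, POLR1B and POLR1G between 0.35 and 0.72, and the intervals of POLR1D, POLR1E and POLR1H span 0.

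Of the heterodimer subunits, POLR1G rose and POLR1E did not pass the test, but a difference between them was not shown. POLR1G (ENSG00000117877, chromosome 19, 45406644 to 45410737, plus strand) had 9.05, 7.53 and 7.08 FPKM in siPOLR1F, and 3.88, 6.11 and 4.49 FPKM in NC. The groups did not overlap, and NC 2 was the highest of its group. The mean was 7.89 ± 1.03 FPKM in siPOLR1F and 4.82 ± 1.15 in NC (SD, n = 3 each), a log2 fold change of 0.72 (SE 0.17, interval 0.34 to 1.10, edgeR adjusted p = 0.0212). This was the largest rise among the subunits, and the call was lost without siPOLR1F 1 (edgeR adjusted p = 0.0723), NC 1 (0.0532) or NC 3 (0.0747), with 8.82e-05 to 0.105 over all alternatives.

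POLR1G overlaps ERCC1, a DNA repair gene on the other strand, over 3404 bases. ERCC1 held 4.40 times the counts of POLR1G, and its log2 fold change was 0.08 (edgeR adjusted p = 0.397). The strand setting of the counting is not given in the sources used here, so reads of overlapping genes may be divided between them. POLR1E (ENSG00000137054, chromosome 9, 37485948 to 37503697, plus strand) had 33.3, 33.6 and 38.9 FPKM in siPOLR1F, and 29.8, 33.5 and 33.1 FPKM in NC. The groups overlapped, and siPOLR1F 3 was the highest library. The log2 fold change was 0.14 (SE 0.08, interval -0.03 to 0.32, edgeR adjusted p = 0.240). The ratio of POLR1G to POLR1E was 0.272, 0.224 and 0.182 in siPOLR1F and 0.130, 0.182 and 0.135 in NC, so the groups met at their edge (exact two-sided permutation p = 0.2).

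POLR1H, the RNA cleavage subunit (ENSG00000066379, chromosome 6, 30058899 to 30064909, plus strand), had 3.88, 4.09 and 3.63 FPKM in siPOLR1F and 3.35, 3.71 and 3.39 FPKM in NC. NC 2 lay inside the siPOLR1F range. The log2 fold change was 0.16 (SE 0.09, interval -0.06 to 0.37, edgeR adjusted p = 0.283). POLR1H overlaps the antisense gene ZNRD1ASP over 2742 bases. ZNRD1ASP, which was below the expression filter, had 339, 340 and 430 counts in siPOLR1F and 547, 435 and 488 in NC, 0.458 times those of POLR1H. Its FPKM averaged 0.270 in siPOLR1F and 0.359 in NC, and how far its reads bear on POLR1H was not tested.

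Neither assembly subunit passed the test. POLR1C (ENSG00000171453, chromosome 6, 43509702 to 43562391, plus strand) had 6.84, 7.27 and 6.67 FPKM in siPOLR1F, and 5.44, 6.41 and 5.71 FPKM in NC. The groups did not overlap, with NC 2 closest to siPOLR1F. The log2 fold change was 0.25 (SE 0.08, interval 0.07 to 0.43, edgeR adjusted p = 0.0631, unadjusted p = 0.0125). It passed without NC 2 (edgeR adjusted p = 0.0348), with DESeq2 (0.0277) and with the replicate number as a block (0.0384), within a range of 0.0277 to 0.177 over all alternatives. Its span also covers YIPF3 and part of the nuclear export receptor gene XPO5, both on the other strand, with log2 fold changes of 0.02 and 0.17 (edgeR adjusted p = 0.870 and 0.179). A noncoding gene in the same span, ENSG00000271754, had at most 35 counts in any library (log2 fold change -0.55, edgeR adjusted p = 0.523).

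POLR1D (ENSG00000186184, chromosome 13, 27620742 to 27744237, plus strand) had 4.81, 4.95 and 5.08 FPKM in siPOLR1F, and 4.95, 5.02 and 5.66 FPKM in NC. The groups overlapped, and NC 3 stood above the rest. The log2 fold change was -0.07 (SE 0.07, interval -0.22 to 0.09, edgeR adjusted p = 0.526). The ratio of POLR1C to POLR1D was 1.42, 1.47 and 1.31 in siPOLR1F and 1.10, 1.28 and 1.01 in NC, without overlap (exact two-sided permutation p = 0.1, the smallest possible). This pair, like the other ratios given except POLR1B to POLR1A, was chosen after the values were seen.

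The order of the FPKM levels changed at POLR1F and POLR1G. In siPOLR1F the means ran from POLR1E at 35.3 through POLR1B at 13.3, POLR1G at 7.89, POLR1C at 6.93, POLR1D at 4.95, POLR1A at 4.76 and POLR1H at 3.86 to POLR1F at 1.67. In NC they ran from POLR1E at 32.1 through POLR1B at 9.12, POLR1F at 8.28, POLR1C at 5.85, POLR1D at 5.21, POLR1G at 4.82 and POLR1A at 3.75 to POLR1H at 3.49. Neighbours whose library ranges overlapped were POLR1G and POLR1C, and POLR1D and POLR1A, in siPOLR1F. In NC every neighbouring pair from POLR1C to POLR1H overlapped. The order depends on the gene length used. With counts divided by library total and by the length of the longest coding transcript (CPM per kilobase), NC gave POLR1E at 40.3, POLR1B at 18.1, POLR1C at 17.0, POLR1H at 16.6, POLR1D at 15.7, POLR1F at 9.28, POLR1A at 6.48 and POLR1G at 5.25.

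POLR1F made up 2.71%, 1.86% and 1.83% of the summed FPKM of the 8 subunits in siPOLR1F, against 12.8%, 11% and 10.5% in NC. The groups stood far apart, with siPOLR1F 1 the highest of its group. As POLR1F is the siRNA target, its lower share is no result separate from its fall. Shares and sums, like the order, depend on the gene length used. The difference in share, siPOLR1F minus NC, was -9.3 percentage points with FPKM and -6.84 with counts in place of FPKM. The 7 other subunits summed to 75.3, 74.7 and 80.7 FPKM in siPOLR1F, against 59.8, 68.0 and 65.4 FPKM in NC. Every siPOLR1F sum was above every NC sum, and the mean was 19.5% higher. POLR1E alone holds much of these sums. Without it, the 6 remaining subunits summed to 42.1, 41.1 and 41.8 FPKM in siPOLR1F and 30, 34.5 and 32.3 FPKM in NC. The ratio of POLR1B to POLR1A was 2.88, 2.67 and 2.83 in siPOLR1F and 2.68, 2.16 and 2.52 in NC. These groups overlapped at siPOLR1F 2 and NC 1 (exact two-sided permutation p = 0.2).

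**Figure D3:**
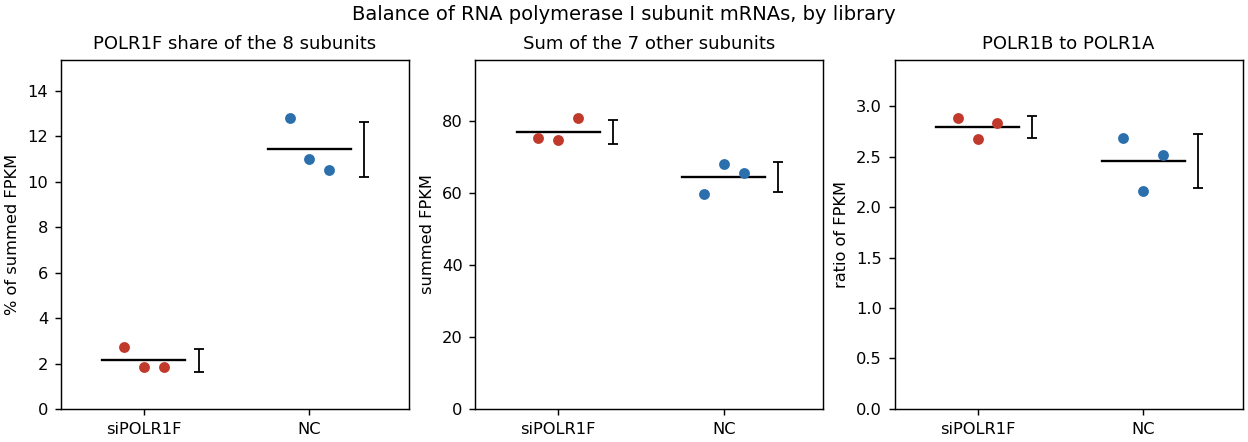
Balance among the Pol I subunits in each library, siPOLR1F left of NC: the share of POLR1F in the summed FPKM, the sum of the other subunits and the ratio of POLR1B to POLR1A, with points for libraries, a line for the mean and a bar for the SD (n = 3 each). The share of POLR1F is 1.83% to 2.71% in siPOLR1F and 10.5% to 12.8% in NC, while the ratio of POLR1B to POLR1A overlaps between the groups.

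The subunits were set beside those of RNA polymerase II (Pol II, the enzyme of messenger RNA) and Pol III (the enzyme of transfer RNA and 5S RNA). Of 7 subunits specific to Pol II, POLR2D and POLR2C rose, none fell, and the median log2 fold change was -0.06. POLR2D, a stalk subunit, averaged 13.6 ± 1.28 FPKM in siPOLR1F and 7.65 ± 0.339 in NC (SD, n = 3 each), with log2 fold change 0.84 (edgeR adjusted p = 0.000435). The change of POLR2C was 0.44 (edgeR adjusted p = 0.00351). Of 11 subunits specific to Pol III, POLR3D, CRCP and POLR3C rose, none fell, and the median was 0.21. The log2 fold change was 0.58 for POLR3D (edgeR adjusted p = 0.00144), 0.35 for CRCP (0.0220) and 0.32 for POLR3C (0.0288). CRCP and POLR3C lost the call when single libraries were left out, with adjusted p-values up to 0.0819 and 0.0966.

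The 5 subunits common to Pol I, Pol II and Pol III had a median log2 fold change of -0.02 and none rose. POLR2K fell, at 19.1 ± 1.14 FPKM in siPOLR1F and 24.0 ± 0.836 in NC (SD, n = 3 each). Its log2 fold change was -0.33 (edgeR adjusted p = 0.0160, up to 0.0608 with a library left out). Of 14 Pol I transcription factors, 3 rose, none fell, and the median was 0.12. TCOF1, the nucleolar protein treacle, changed by 0.80 on the log2 scale (edgeR adjusted p = 0.000175). UBTF, which binds ribosomal DNA, changed by 0.48 (0.00308), and TAF1D, a subunit of the promoter selectivity factor, by 0.35 (0.0155, up to 0.0601 with a library left out). Of the 14 factors, 3 (TCOF1, UBTF and TBP) hold TCGGAGA in the coding sequence, and POLR2D holds it in the 3′ UTR. Of all genes searched, 2.07% hold it in the 3′ UTR. Of these 233 genes, 33.9% were called higher and 6.87% lower, against 10.0% and 8.22% of genes with no copy in the transcript. These shares are no independent support either, as the heptamer was picked out in these same data. TBP did not pass the test (log2 fold change 0.06, edgeR adjusted p = 0.644). TAF1D holds TCGGAGA in neither the coding sequence nor the 3′ UTR. Of the marker genes searched, FN1 alone holds it in the coding sequence. No subunit specific to Pol II or Pol III holds TCGGAGA in the coding sequence, where 7.83% of all genes searched hold it. In lists this small these counts carry no test, and the part of TCGGAGA in the values of these genes was not tested. The numbers called higher or lower are read beside the 10.3% of tested genes called higher and 6.94% called lower. Without group overlap in FPKM, 5 of 11 Pol III subunits, 6 of 14 factors and 2 of 7 Pol II subunits were higher. In the same way 2 Pol II subunits and 1 shared subunit were lower. Of all tested genes, 18.9% were higher and 19.0% lower without overlap.

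**Figure D4:**
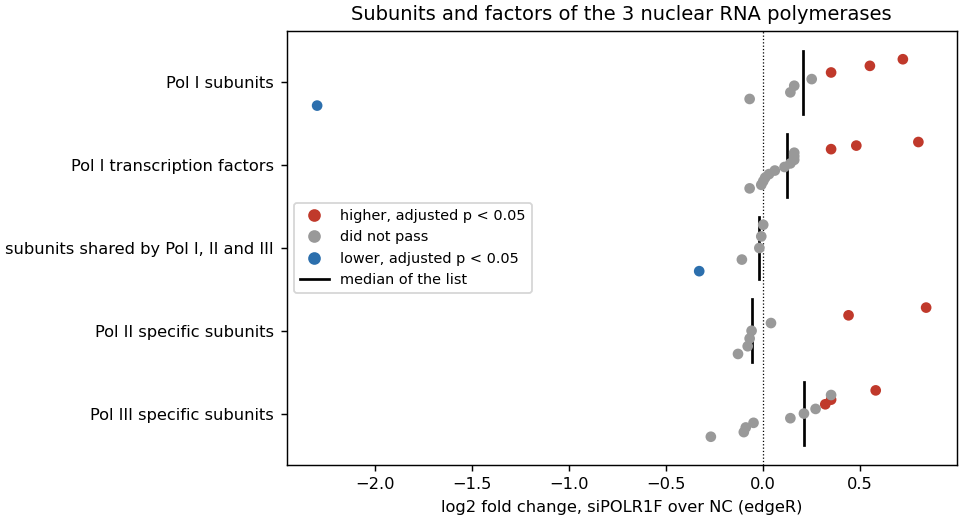
Log2 fold change (siPOLR1F over NC, edgeR) of the Pol I subunits, of the subunits specific to Pol II and Pol III, of those shared by all of them and of Pol I transcription factors, with 1 point per gene, coloured by the call at an adjusted p of 0.05, and a line at each list's median. POLR1F at -2.30 lies apart from all other points, and POLR2D at 0.84 is the highest Pol II subunit.

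POLR1A was also compared with its match in Pol II, and POLR1B with its matches in Pol II and Pol III. These pairs were chosen after the values were seen. The ratio of POLR1A to POLR2A was 0.139, 0.144 and 0.147 in siPOLR1F and 0.113, 0.121 and 0.112 in NC. POLR2A itself had a change of 0.04 on the log2 scale (edgeR adjusted p = 0.729). The ratio of POLR1B to POLR2B was 0.576, 0.536 and 0.598 in siPOLR1F and 0.371, 0.368 and 0.385 in NC, and that of POLR1B to POLR3B was 3.36, 3.2 and 3.2 in siPOLR1F and 2.10, 1.99 and 2.20 in NC. In these 3 ratios every siPOLR1F library was above every NC library (exact two-sided permutation p = 0.1 each, the smallest possible). POLR2B had a log2 fold change of -0.06 and POLR3B of -0.09 (edgeR adjusted p = 0.451 and 0.507). The ratio of POLR1A to its Pol III match, POLR3A, was not computed. POLR3A had 3.65, 3.70 and 3.76 FPKM in siPOLR1F and 2.70, 3.42 and 3.11 in NC, higher without overlap. Its log2 fold change was 0.27 (edgeR adjusted p = 0.0586), so a rise of POLR1A relative to POLR3A was not shown.

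No other subunit followed the pattern of POLR1F. Likeness was measured as the root mean square difference, over the 6 libraries, of log2 FPKM relative to the NC mean, with 0.1 added. Among 11663 genes with a mean of at least 1 FPKM, the median distance to POLR1F was 1.6, and the subunits lay between 1.56 (POLR1D) and 2.10 (POLR1G). The closest genes were RN7SL2 (0.59), ARL6IP6 (0.70), IFIT1 (0.71), GOLM2 (0.71) and GSTT2 (0.73). RN7SL2, a 7SL RNA of the signal recognition particle with near-identical copies in the genome, had 6.91, 5.42 and 4.33 FPKM in siPOLR1F and 33.3, 10.7 and 13.7 FPKM in NC, so its closeness rests largely on NC 1. ARL6IP6 had 0.804, 0.936 and 0.913 FPKM in siPOLR1F and 2.40, 2.24 and 2.48 FPKM in NC. Among the members, POLR1C and POLR1H were closest to each other (0.07), followed by POLR1A and POLR1C (0.10).

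**Figure D5:**
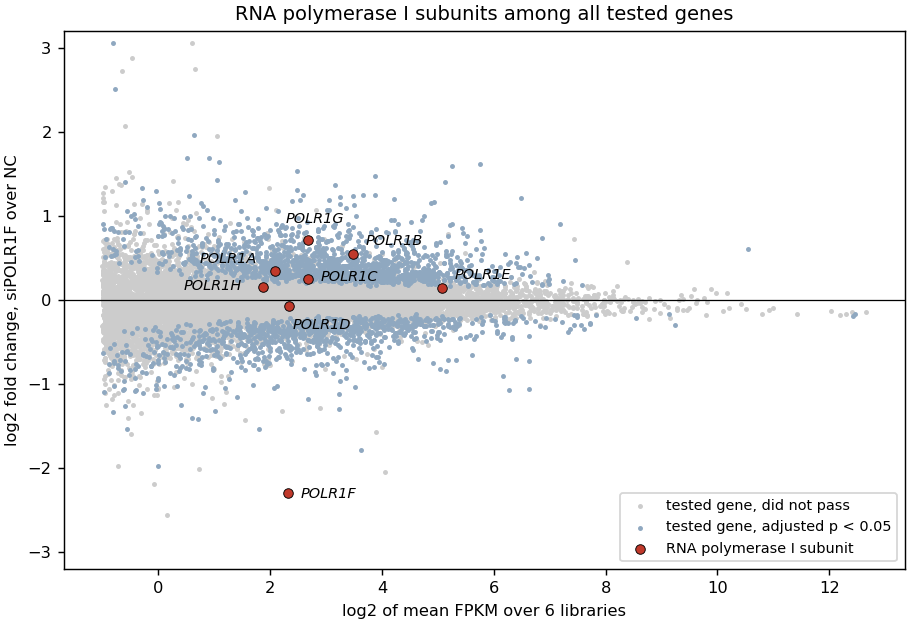
Log2 fold change (siPOLR1F over NC) against the log2 of the mean FPKM for all tested genes, with the Pol I subunits marked; 6 genes lie beyond the axis, at changes over 3.2 in size. POLR1F lies at -2.30, and the other subunits lie between -0.07 and 0.72.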

How the data were processed

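Poly(A) RNA of 8505C cells was sequenced in 3 siPOLR1F and 3 NC libraries, grouped by the labels, with 1 batch label for all. The tools named per the submitters' processing notes are fastp, HISAT2 and StringTie, with GRCh38 (hg38) as the build. Their versions, the annotation and the strand setting were not given in the sources used here. The authors deposited whole-number counts and FPKM per gene and library, and all columns matched a sample. Genes with a mean of at least 0.5 FPKM (99.4% of the counts) were tested on counts with edgeR 4.0.16 (TMM, glmQLFit, glmQLFTest, two-sided; R 4.3.3), with Benjamini-Hochberg adjusted p-values called below 0.05. Named genes were the 8 members, genes overlapping them, up to 3 genes per list with the smallest adjusted p past the test (the most abundant where none passed), and the 5 genes most like POLR1F. Named outside this rule, after their values were seen, were POLR2A, POLR2B, POLR3A, POLR3B, TBP, ZNRD1ASP, VIM, CDH2, ZEB1, TG, TSHR, SLC5A5, PAX8, FOXE1, CDH1, KRT18, EPCAM, PECAM1, VWF and PTPRC. The members and lists were chosen with earlier results of these data known. Alternatives were DESeq2 1.42.0, limma 3.58.1 on log2(FPKM + 1) and log2(FPKM + 0.1), other scalings and filters, a replicate block and leaving out each library. Transcripts came from GENCODE 29 and promoters from RefSeq.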

Additional observations from a re-analysis of the deposited data

How the results depend on the processing

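No log2 fold change of a subunit changed direction under any alternative run for it. Nor did the POLR1F share, the sum of the 7 other subunits or the ratio of POLR1B to POLR1A. The other ratios, the sum without POLR1E, the list medians and the heptamer shares were not rerun. POLR1A no longer passed with limma on log2(FPKM + 1) (log2 fold change 0.28), limma on log2(FPKM + 0.1) (0.34) or without a filter on low values (0.36), and POLR1G did not pass without the filter (0.73). POLR1C passed with DESeq2 (0.25) and the replicate block (0.25). Without the filter, where 33539 genes were tested, 663 genes were called higher and 313 lower, against 1391 and 942, and 1 subunit was called higher. At a mean of at least 5 FPKM, POLR1A, POLR1F and POLR1H fell under the filter and were not tested. With POLR1F untested, 0 subunits were called lower there. Without POLR1A and POLR1B, which hold TCGGAGA, 1 was called higher, an alternative added after seeing the data. That number follows by subtraction, since both were called higher themselves. Leaving out each library gave 730 to 1326 genes higher and 423 to 841 lower, 1 to 4 subunits higher and 1 lower, and log2 fold changes of 0.27 to 0.44 for POLR1A, 0.49 to 0.59 for POLR1B, 0.20 to 0.32 for POLR1C, 0.58 to 0.92 for POLR1G and -2.50 to -2.19 for POLR1F. The cause of these changes was not tested. Whether the replicate numbers pair the libraries is not stated in the labels and is undecided in the data. Deviations of same-numbered libraries correlated at 0.293, 0.0157 and 0.274, and every library correlated best with its own number. The replicate block gave 1517 genes higher and 1125 lower.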
